A study of Homo sapiens with 6 samples.

Results

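MATK, CSK and the Src family kinases form a small signalling circuit of cytoplasmic tyrosine kinases, described here in D283 Med, an established line of medulloblastoma cells (a cerebellar tumour of childhood). The members were the rows of the deposited table whose gene symbol was one of 8 listed names, and 7 of these names were found among its 31785 rows (MATK, CSK, SRC, FYN, YES1, LYN and FRK). LCK was not analysed here. The knockdown group was 3 libraries of D283 cells titled Musashi-1 Knockdown, with the genotype written MS1 Knockdown, and the WT group was 3 libraries of D283 cells with the genotype WT, all grown in DMEM/F12 medium with serum. Musashi-1 (gene MSI1) binds RNA and marks stem cells of the nervous system. Neither the means of knockdown nor any control construct in WT cells is stated. Separate cultures are not stated either, so the p-values cover the spread between libraries, which may be technical. The members were chosen by their knockdown-against-WT values in these same libraries, chiefly the difference of MATK. Their differences between the groups are therefore a description, given without p-values.

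Src family kinases sit at the inner face of the plasma membrane and pass signals from integrins, receptor tyrosine kinases and adhesion molecules to the cytoskeleton and to growth pathways. They are held inactive when a tyrosine near the end of the protein is phosphorylated, since the phosphorylated tail folds back onto the kinase's own SH2 domain. CSK (C-terminal Src kinase) and its relative MATK (megakaryocyte-associated tyrosine kinase, also called CHK) are the kinases that phosphorylate this tail, CSK in nearly all cells and MATK mainly in blood cells and brain. In neurons, SRC and FYN act downstream of reelin, neural adhesion molecules and neurotrophin receptors.

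The coding ends show the site on which the circuit turns. Below are the last 15 codons before the stop codon of SRC, YES1, FYN, FRK, CSK and MATK, from GENCODE 29 transcripts on GRCh38, 5′ to 3′, with the last tyrosine codon in capitals.
SRC: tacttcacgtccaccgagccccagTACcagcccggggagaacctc
YES1: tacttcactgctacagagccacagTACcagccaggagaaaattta
FYN: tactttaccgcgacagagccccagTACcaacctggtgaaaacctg
FRK: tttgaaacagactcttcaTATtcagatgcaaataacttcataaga
CSK: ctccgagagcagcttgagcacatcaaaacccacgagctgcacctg
MATK: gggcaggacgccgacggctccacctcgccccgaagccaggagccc
The capitals mark codon 530 of SRC, 537 of YES1 and 531 of FYN, each followed by 6 more codons, and codon 497 of FRK, followed by 8. CSK and MATK have 0 tyrosine codons in this stretch. SRC, YES1 and FYN shared 34 or 35 of the 45 bases in each pairing, so the paralogs are close but not identical here. The labels do not give the handling of reads that match several paralogs.

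The libraries were compared by depth, correlation and marker genes. Depth, recovered from the deposited values as whole reads, was 18895997 to 24442276 reads per knockdown library and 17299671 to 38790342 per WT library. Libraries of a group correlated across genes with r of 0.988 to 0.994 in knockdown and 0.978 to 0.985 in WT, and pairs of 1 library from each group with r of 0.972 to 0.982. MSI1 itself had 1385.3, 1197.2 and 1281.2 normalised reads in knockdown 1, 2 and 3, against 1585.7, 1572.3 and 1377.8 in WT 1, 2 and 3, which put knockdown at 85.2% of WT. The groups overlapped and the difference did not pass the test (−0.21, SE 0.12, limma adjusted p = 0.304, range over 14 alternatives 0.224 to 0.546). Of 14 marker genes for Group 3 and 4 medulloblastoma and neural cells, all in the table, 7 were tested, of which 4 had a higher and 3 a lower mean in knockdown than in WT, and the groups overlapped for each but OTX2. The transcription factor gene OTX2 had 30373 ± 3590 normalised reads in knockdown and 23664 ± 3341 in WT, and NRL, a photoreceptor transcription factor gene, had 389 ± 69.7 in knockdown and 706 ± 375 in WT (SD, n = 3 each). WT 3 was the lowest of all libraries for NEUROD1, SYP and NRL, at 974, 170 and 297 normalised reads. WT 1 and 2 had 3340 and 2804 for NEUROD1, 653 and 527 for SYP, and 786 and 1034 for NRL. WT 3 was also the lowest library for OTX2, at 19886 normalised reads against 24879 and 26228 in WT 1 and 2. For ZIC1 it was the lowest by a small margin, at 1007 against 1012 in knockdown 3. For CRX and NES, WT 3 lay within the range of the other libraries. Of the 14 markers 3 stayed under 10 reads in every library. Of 16 blood cell markers 10 were in the table, and their summed level was 93.1 to 116 normalised reads in knockdown and 97.8 to 164 in WT. PTPRC, the pan-leukocyte surface phosphatase CD45, had 0 reads in each knockdown library and 2 reads in each WT library. A count of 0 allows up to 3 reads in a library.

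MATK was the member whose level separated the groups widely. It lies at chr19:3777970-3802129 (minus strand) on GRCh38. Normalised reads are reads divided by 1 size factor per library. MATK had 603.1, 656.4 and 610.6 of them in knockdown 1, 2 and 3, against 197.7, 122.4 and 168.1 in WT 1, 2 and 3. Every knockdown library lay above every WT library, with 135 to 596 reads behind each value. The means were 623 ± 28.9 in knockdown and 163 ± 37.9 in WT (SD, n = 3 each), a ratio of 3.83. On the deposited scale, a log2-like scale on which the change of weakly expressed genes is understated, the difference was 1.49 (SE 0.14), at rank 7 when the 13558 tested genes are ordered from the most positive difference down. These are the values that chose the gene.

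**Figure D1:**
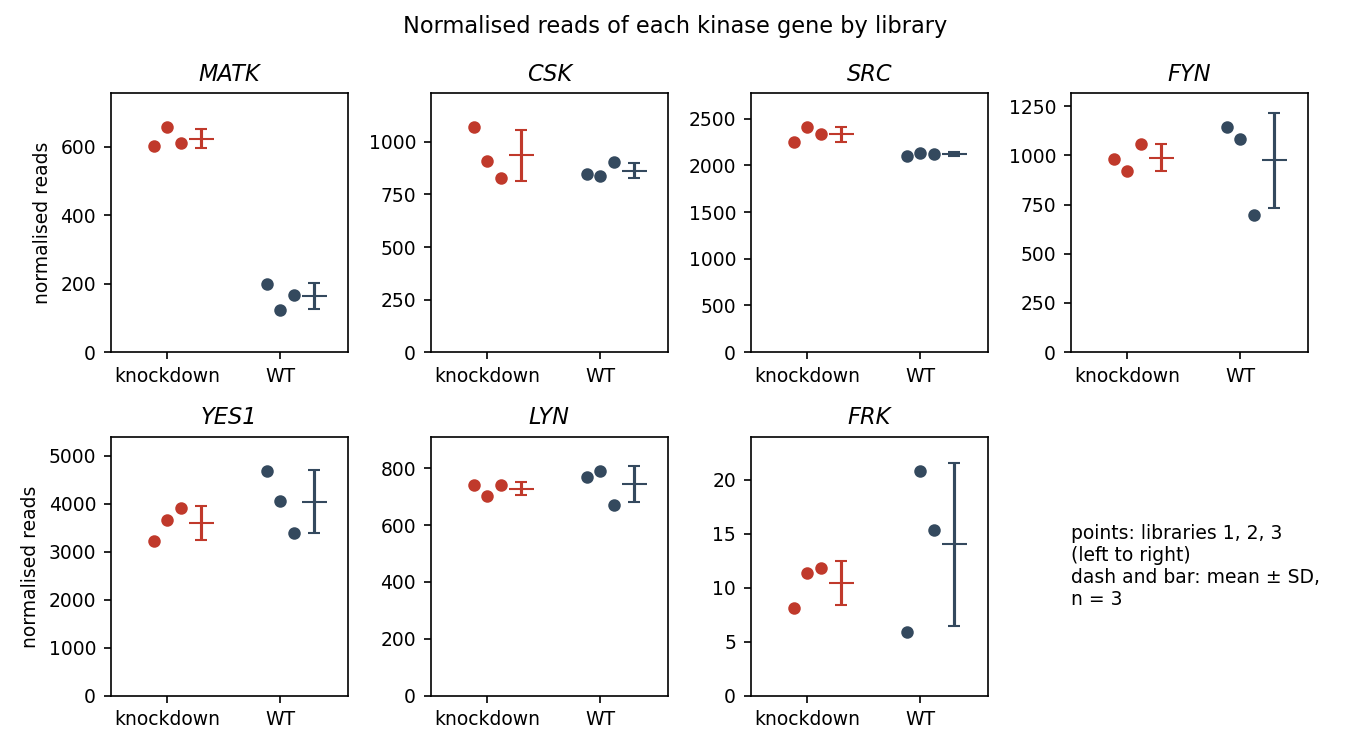
Normalised reads (vertical axes, each from 0) of the 7 kinase genes in the 3 knockdown and 3 WT libraries, with the mean ± SD beside the points. MATK is at 603.1 to 656.4 in knockdown and at 122.4 to 197.7 in WT, while the groups of CSK, FYN, YES1, LYN and FRK overlap.

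CSK, the general Src tail kinase, differed little between the groups. It lies at chr15:74782057-74803198 (plus strand). CSK had 1070, 909 and 828 normalised reads in knockdown 1, 2 and 3, against 849, 837 and 903 in WT 1, 2 and 3. Knockdown 1 was the highest library and knockdown 3 the lowest, so the groups overlapped. The means were 936 ± 123 in knockdown and 863 ± 35.4 in WT (SD, n = 3 each), and the difference on the log2 scale was 0.10 (SE 0.12).

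SRC, the family's prototype, was slightly higher in each knockdown library. It lies at chr20:37344685-37406050 (plus strand). SRC had 2254, 2409 and 2333 normalised reads in knockdown 1, 2 and 3, against 2101, 2138 and 2128 in WT 1, 2 and 3. The ratio of the means was 1.10, and the log2-scale difference was 0.13 (SE 0.10). The WT libraries were close together, with an SD of 0.012 on the log2 scale against 0.046 in knockdown, and this left a small gap between the groups.

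YES1, the ubiquitous close relative of SRC, had the highest read level of the members. It lies at chr18:721588-812546 (minus strand). YES1 had 3221, 3654 and 3912 normalised reads in knockdown 1, 2 and 3, against 4687, 4065 and 3384 in WT 1, 2 and 3. The groups overlapped, since WT 3 lay below knockdown 2 and 3. The difference was −0.16 (SE 0.14), with means of 3596 ± 349 in knockdown and 4045 ± 652 in WT (SD, n = 3 each).

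FYN, which phosphorylates the reelin adaptor DAB1 in migrating neurons, lies at chr6:111660332-111873452 (minus strand). It had 982, 923 and 1060 normalised reads in knockdown 1, 2 and 3, against 1144, 1085 and 696 in WT 1, 2 and 3. WT 3 was the lowest of the 6 libraries and WT 1 the highest. The difference was 0.04 (SE 0.17), and it was −0.16 without WT 3 and −0.0039 without knockdown 3, so its sign was not fixed.

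LYN, best known from B cell and myeloid signalling, lies at chr8:55879813-56014168 (plus strand). It had 742, 703 and 740 normalised reads in knockdown 1, 2 and 3, against 770, 791 and 671 in WT 1, 2 and 3. The knockdown libraries lay inside the range of the WT libraries, with a difference of −0.02 (SE 0.12) that was −0.09 without WT 3. WT 3 was thus the lowest WT library for YES1, FYN and LYN alike, at −0.24, −0.40 and −0.13 from the WT mean on the log2 scale.

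FRK, an epithelial kinase of the wider Src group, was near the limit of detection. It lies at chr6:115931149-116060758 (minus strand). FRK had 8.10, 11.3 and 11.8 normalised reads in knockdown 1, 2 and 3, against 5.86, 20.8 and 15.4 in WT 1, 2 and 3, from 4 to 33 reads a library. The WT range enclosed that of knockdown. The gene fell below the level required for testing and entered no fit over the tested genes.

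In counts, 6 of the 7 members were tested and 1 of them, MATK, passed the limma threshold, which 4.10% of the 13558 tested genes passed (242 or 1.78% higher and 314 or 2.32% lower in knockdown). The groups did not overlap for 2 of the 6, MATK and SRC, both higher, against 14.1% of all tested genes that were higher without overlap, 13.6% that were lower and 27.8% in either direction. The contrast chose the members, so nothing is read from these counts. The median difference of the 6 was 0.07, and that of all tested genes was 0.0061. With 3 libraries a group, the smallest p of an exact two-sided permutation test is 0.1.

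Levels of different genes were compared per kilobase of exon. YES1 came first in both groups, at 705 ± 68.5 normalised reads per kilobase in knockdown and 793 ± 128 in WT (SD, n = 3 each). SRC followed at 361 ± 12.1 in knockdown and 328 ± 2.95 in WT, and CSK at 205 ± 26.9 in knockdown and 189 ± 7.74 in WT. MATK came next in knockdown at 151 ± 6.97, above FYN at 133 ± 9.28 and LYN at 118 ± 3.56. In WT it lay at 39.3 ± 9.16, below FYN at 132 ± 32.8 and LYN at 120 ± 10.4. Among neighbours in the order, FYN and LYN overlapped in WT, and no other pair overlapped in either group. FRK came last at 0.787 ± 0.152 in knockdown and 1.06 ± 0.572 in WT. Set against 13387 tested genes with a known length, the mean level of MATK per kilobase was at percentile 52.9 in knockdown and 21.4 in WT, and that of YES1 at percentile 88.3 in knockdown and 90.0 in WT.

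**Figure D2:**
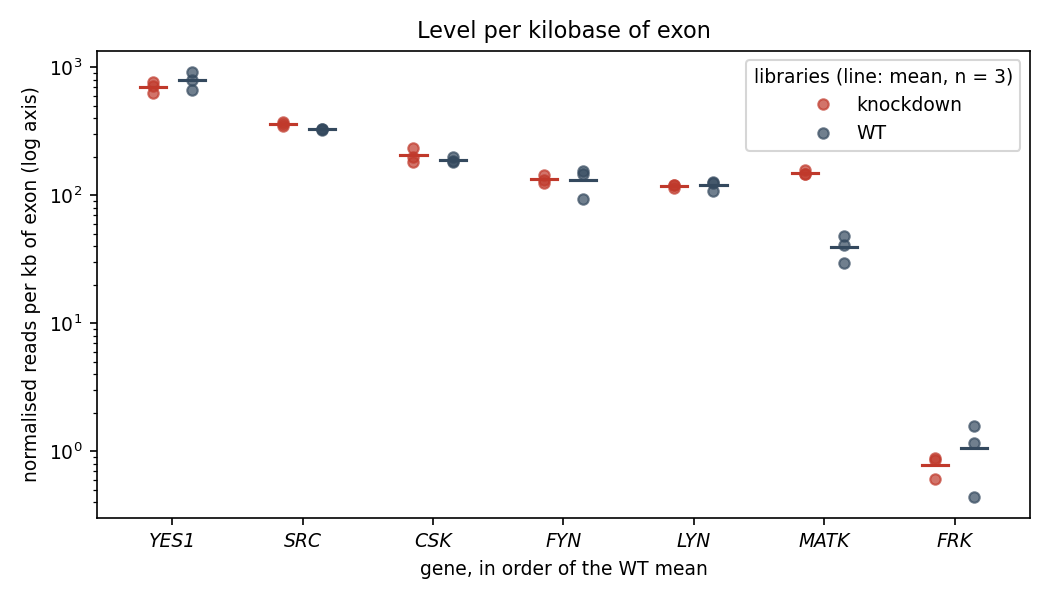
Normalised reads per kilobase of exon (vertical log axis) of the 7 genes in order of their WT mean, with each library as a point and the group mean as a line. MATK lies above FYN and LYN in knockdown, with a mean of 151, and below both in WT, with a mean of 39.3.

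The balance between the tail kinases and their targets was described within each library. MATK made up 38.4%, 44.3% and 44.9% of the level per kilobase of MATK and CSK together in knockdown 1, 2 and 3, against 20.4%, 13.9% and 17.0% in WT 1, 2 and 3. The ratio of MATK to CSK was 0.744 ± 0.106 in knockdown and 0.208 ± 0.0478 in WT (SD, n = 3 each). The added level of both genes was 355 ± 25.6 in knockdown and 228 ± 13.6 in WT, and no library of one group reached the other. The 5 Src family genes summed to 1318 ± 79.8 in knockdown and 1374 ± 165 in WT, with overlap. MATK and CSK together thus stood at 0.308, 0.269 and 0.236 of the Src family sum in knockdown 1, 2 and 3, against 0.153, 0.152 and 0.199 in WT 1, 2 and 3. CSK alone stood at 0.157 ± 0.0304 in knockdown and 0.139 ± 0.0229 in WT, with overlap, so the gap between the groups lay in MATK. These are ratios of mRNA and say nothing of protein or kinase activity.

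**Figure D3:**
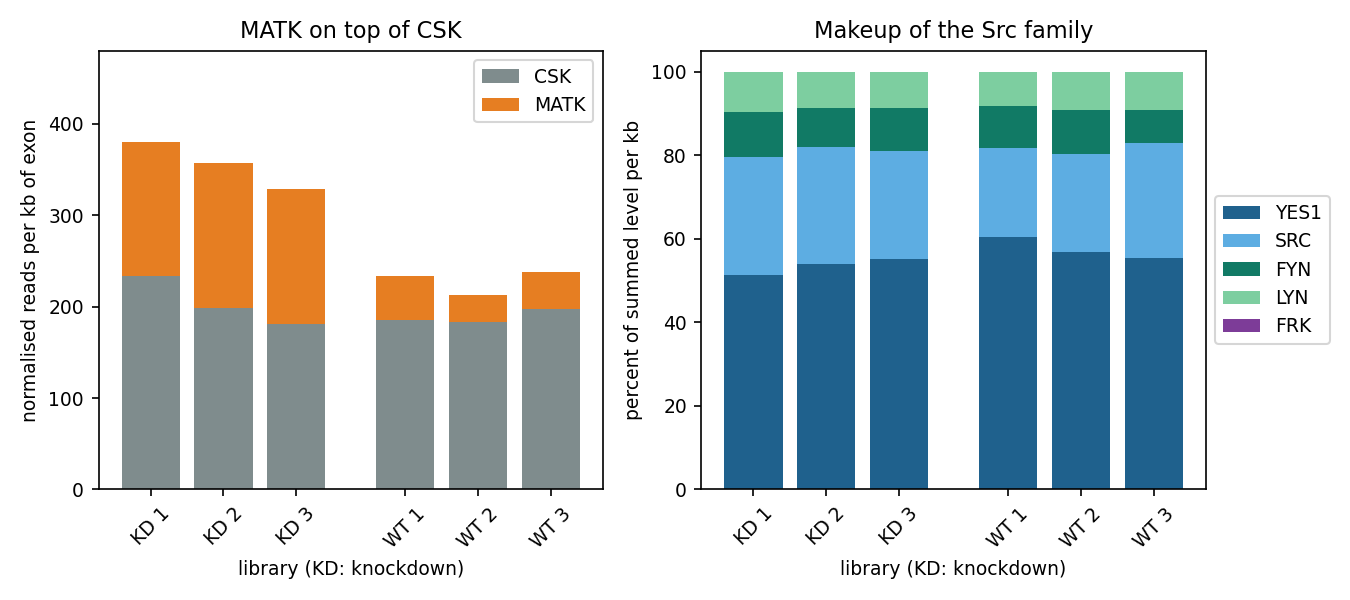
Left, normalised reads per kilobase of exon of CSK with MATK stacked on it, by library. Right, the percent of the summed Src family level per kilobase held by each gene. MATK is 38.4% to 44.9% of its stack in knockdown and 13.9% to 20.4% in WT, and YES1 is the largest share of the family in all 6 libraries.

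Within the Src family the makeup was similar in both groups. YES1 held 53.4% ± 2.00 of the summed level in knockdown and 57.5% ± 2.51 in WT (SD, n = 3 each). SRC held 27.4% ± 1.29 in knockdown and 24.1% ± 3.13 in WT, FYN 10.1% ± 0.694 in knockdown and 9.47% ± 1.41 in WT, and LYN 8.96% ± 0.662 in knockdown and 8.78% ± 0.528 in WT. FRK held under 1% in every library. For YES1 the groups did not overlap, with 51.2% to 55.1% in knockdown and 55.5% to 60.3% in WT, though the gap between the closest libraries was small. Of 5 other listed Src-related kinases, 4 were in the table and 0 reached the level required for testing.

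The profiles closest to MATK were sought among 13475 other tested genes with a symbol, by the root-mean-square distance between the 6 values of each gene after its own mean was taken off. The nearest was SULT1A1, a phenol sulfotransferase, at a distance of 0.16 on the log2 scale, with 644 ± 22.6 normalised reads in knockdown and 219 ± 22.3 in WT (SD, n = 3 each). SULT1A1 has near-identical paralogs, so its counts are uncertain. AL354809.1 was next at 0.16, followed by EPB41L3, a membrane skeleton protein of the 4.1 family, at 0.18, with 1081 ± 61.4 in knockdown and 434 ± 51.3 in WT. PDLIM1, an actin-associated PDZ and LIM protein, lay at 0.24, and UNCX, a homeobox transcription factor, at 0.25, with 233 ± 107 normalised reads in knockdown and 29.4 ± 5.11 in WT. Since the distance covers both groups, it picks genes with a gap between groups like that of MATK.

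Within 50 kb of MATK on chromosome 19 the annotation holds 8 other genes, of which 4 were tested and 0 passed (limma, 1 at an unadjusted p under 0.05, and 0 with limma voom on recovered reads). Over all tested genes 4.10% passed and 22.0% were at an unadjusted p under 0.05, so these counts do not set the 4 apart. ZFR2, the nearest upstream at a gap of 1895 bases, had 116 ± 31.7 normalised reads in knockdown and 144 ± 24.1 in WT (SD, n = 3 each). RAX2, a retinal homeobox gene 5749 bases downstream, was not tested, with 8.73 ± 8.80 in knockdown and 3.28 ± 1.63 in WT. MRPL54, a mitochondrial ribosomal protein gene, had 785 ± 204 in knockdown and 558 ± 39.1 in WT, with a difference of 0.40 (SE 0.17, limma adjusted p = 0.205). No annotated gene overlaps MATK. The genes that overlap YES1, CSK, LYN or FRK, and the pseudogene YES1P1, were all untested or without a row.

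The 3′ UTRs of the members were searched, on the transcript strand, for the core TAG that Musashi proteins bind and for its longer forms GTAGT and ATAGT, which contain that core. The MATK 3′ UTR of 210 bases holds 1 TAG and 0 longer forms. CSK with 685 bases holds 2 and 0, SRC with 2671 bases 13 and 0, and LYN with 462 bases 6 and 0. FYN holds 11 and 2 in 1407 bases, YES1 33 and 3 in 2836 bases, and FRK 163 and 25 in 11265 bases. In the first 200 bases of the 3′ UTR, a longer form is present in 18.9% of 10553 tested genes and in 0 of the 7 members. The core is present there in 80.4% of those genes and in 6 of the 7 members. A match is only these letters, and their absence from these windows says nothing of binding.

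The lists of related kinases, adaptors, phosphatases, substrates and receptors held 98 genes other than the members, of which 74 were tested, 4 rose and 3 fell (limma adjusted p under 0.05). This is 9.46% of the tested list genes against 4.10% of all tested genes. Of the 74, 30 were higher and 44 lower whatever the test, and the median difference was −0.06. Without knockdown 1, 2 or 3 the calls were 1, 3 and 1 higher and 1 lower each time, without WT 2 they were 2 higher and 1 lower, and without WT 3 they were 3 higher and 10 lower. The lists were written with earlier results of these data known, among them KIT, EGFR, EPHA4 and RELN, which are themselves calls. The choice of genes thus shaped the 9.46%, and nothing is read from it.

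Among 14 tested non-receptor tyrosine kinases outside the family, 1 rose and 0 fell, with a median difference of −0.07. At an unadjusted p under 0.05 (limma) were 4 of the 14. With 4.10% of all tested genes called and 22.0% at such a p, these counts do not set the list apart. The call was SYK, a kinase that acts beside Src family members in immune receptor signalling. It had 1776, 1734 and 1689 normalised reads in knockdown 1, 2 and 3, against 1167, 1087 and 676 in WT 1, 2 and 3. SYK rose 1.77-fold (0.80, SE 0.17, limma adjusted p = 0.0344, range over 14 alternatives 0.00899 to 0.136). The call was lost without knockdown 1, 2 or 3 (0.136, 0.100 and 0.108) and without WT 2 (0.0570). Without knockdown 1, 2 or 3 the difference was 0.78, 0.80 and 0.81, with a larger SE of 0.21, 0.20 and 0.21. Without WT 3, the library with the fewest normalised reads of SYK, the difference was 0.58 (SE 0.12), the smallest of the 14 alternatives. The focal adhesion kinase PTK2, a main partner of SRC, had 3508 ± 163 normalised reads in knockdown and 3542 ± 312 in WT (SD, n = 3 each).

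Of 9 tested docking and negative adaptor genes 0 passed (limma, 3 at an unadjusted p under 0.05, 0 with limma voom), with a median of 0.11. PAG1, the membrane protein that recruits CSK, had 2262 ± 228 normalised reads in knockdown and 2118 ± 535 in WT (SD, n = 3 each). Of 9 tested tyrosine phosphatases 0 passed (limma, 3 at an unadjusted p under 0.05, 0 with limma voom), with a median of −0.0057. PTPRA, which removes the tail phosphate, had 1945 ± 238 in knockdown and 2632 ± 597 in WT, and PTPN11, the phosphatase SHP2, had 6387 ± 398 in knockdown and 8521 ± 717 in WT. PTPRE, a receptor-type relative of PTPRA, had 49.9 ± 15.7 in knockdown and 18.5 ± 10.7 in WT, with a difference of 0.52 (SE 0.17, limma adjusted p = 0.110). With 4.10% of all tested genes called and 22.0% at an unadjusted p under 0.05, the counts of these 2 lists of 9 genes do not set them apart.

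**Figure D4:**
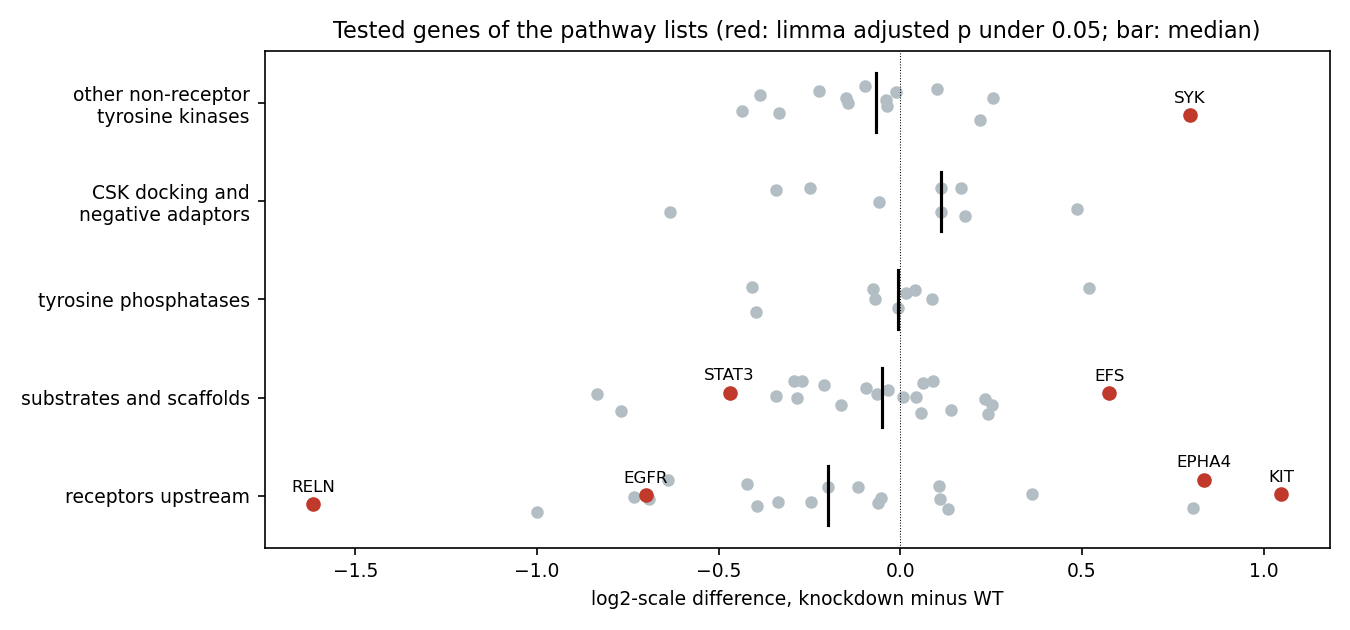
Log2-scale difference, knockdown minus WT (horizontal axis), of each tested gene of the pathway lists, with calls in red and named and each list's median as a bar. SYK, EFS, EPHA4 and KIT are to the right of 0, STAT3, EGFR and RELN to the left, and no docking protein or phosphatase is called.

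Of 22 tested substrates and scaffolds 1 rose and 1 fell, with a median of −0.05. At an unadjusted p under 0.05 (limma) were 6 of the 22. With 4.10% of all tested genes called and 22.0% at such a p, these counts do not set the list apart. EFS, a scaffold of the CAS family that binds Src SH3 domains, had 2159, 1656 and 1994 normalised reads in knockdown 1, 2 and 3, against 1259, 1322 and 1194 in WT 1, 2 and 3. It rose 1.54-fold (0.57, SE 0.12, limma adjusted p = 0.0346, range over 14 alternatives 0.0103 to 0.160). That call was lost without knockdown 1 or 3 (0.160 and 0.140), without WT 2 or 3 (0.0656 and 0.0599) and with a replicate block (0.0728). Of its relatives, BCAR1 had 1760 ± 208 in knockdown and 1813 ± 296 in WT, and NEDD9 had 3866 ± 56.1 in knockdown and 3777 ± 542 in WT (SD, n = 3 each). STAT3, a transcription factor that Src activates, had 4053, 3976 and 4072 normalised reads in knockdown 1, 2 and 3, against 5218, 5799 and 5891 in WT 1, 2 and 3. It fell to 71.6% of WT (−0.47 on the log2 scale, SE 0.11, limma adjusted p = 0.0437, range over 14 alternatives 0.0151 to 0.167). STAT3 lost its call in 9 of the 14, among them the fits without knockdown 1, 2 or 3 (0.167, 0.124 and 0.164), without WT 2 or 3 (0.0995 and 0.0726) and with the replicate block (0.103). DAB1, the FYN substrate of the reelin pathway, had 98.9 ± 37.3 in knockdown and 239 ± 111 in WT (−0.77, SE 0.25, limma adjusted p = 0.117).

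Of 21 tested receptors and ligands that signal through these kinases 2 rose and 2 fell, with a median of −0.20. At an unadjusted p under 0.05 (limma) were 11 of the 21. Over all tested genes 4.10% were called and 22.0% were at such a p. The list was written with the results of KIT, EGFR, EPHA4 and RELN known, so nothing is read from these counts. KIT, the stem cell factor receptor, to which MATK binds through its SH2 domain, had 344, 409 and 352 normalised reads in knockdown 1, 2 and 3, against 165, 139 and 95.2 in WT 1, 2 and 3. It rose 2.77-fold (1.05, SE 0.15, limma adjusted p = 0.00805) and passed in all 14 alternatives (0.000932 to 0.0488). EPHA4, an ephrin receptor, rose 2.25-fold, to 370 ± 82.3 in knockdown against 164 ± 14.2 in WT (SD, n = 3 each; limma adjusted p = 0.0172, range over 14 alternatives 0.00487 to 0.0839), and lost the call without knockdown 1 or 3 (0.0839 and 0.0602). RELN, the reelin ligand whose receptors LRP8 and VLDLR signal through FYN and SRC, had 980, 494 and 818 normalised reads in knockdown 1, 2 and 3, against 1947, 3790 and 2059 in WT 1, 2 and 3. RELN fell to 29.4% of WT (−1.62 on the log2 scale, SE 0.26, limma adjusted p = 0.0126) and passed in all 14 alternatives (0.000384 to 0.0476). EGFR had 59.7 ± 0.672 normalised reads in knockdown and 148 ± 37.7 in WT (SD, n = 3 each), or 40.3% of WT. On the log2-like scale, which understates the change of so weakly expressed a gene, the difference was −0.70 (SE 0.15, limma adjusted p = 0.0330, range over 13 alternatives 0.00799 to 0.126). With limma voom on recovered reads it was −1.26 (SE 0.29). EGFR lost the call without knockdown 1, 2 or 3 (0.126, 0.0938 and 0.115), without WT 1 or 2 (0.0566 and 0.0874) and with the replicate block (0.0613). Without knockdown 1, 2 or 3 its difference was −0.70 each time, with a larger SE of 0.18, 0.17 and 0.18.

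Another MATK partner, ERBB2, had 7107 ± 1196 normalised reads in knockdown and 11105 ± 1707 in WT (SD, n = 3 each), without overlap but short of the threshold (−0.64, SE 0.16, limma adjusted p = 0.0543). CNTN1, the adhesion molecule contactin 1, which associates with FYN, was named after its values were seen. It lay below the level required for testing, with 0, 2 and 0 reads in knockdown 1, 2 and 3, against 36, 132 and 62 reads in WT 1, 2 and 3, or 0.838 ± 1.45 normalised reads in knockdown and 61.2 ± 19.3 in WT.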

How the data were processed

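RNA sequencing was analysed in 6 libraries of D283 Med cells, 3 labelled knockdown and 3 labelled WT. Named in the submitters' processing notes are STAR, DESeq, CASAVA 1.8.2, FastQC, MultiQC and Trim Galore, and the build GRCh38. Neither the read counter nor its annotation or strand setting is stated, so reads of paralogs and overlapping genes may be split. The deposited log2 values were scaled by a size factor per library and variance-stabilised by the authors, going by the file's name and values. The columns headed KD match the knockdown labels. The other 3 columns carry a heading the labels do not explain and were taken as WT by elimination, with library numbers from the headings.

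The lowest value, 5.79, is that of 0 reads. Normalised reads came from inverting that function (offset 55.2), and 100% of values became whole reads within 0.01 after multiplication by 1 size factor per library. Genes with a mean at least 1 above the lowest value were tested (13558 rows, with 18227 left out) with limma 3.58.1 in R 4.3.3 (two-sided moderated test with a variance trend, Benjamini-Hochberg over all tested genes, threshold 0.05). In simulated data this fit recovered 28% of 1.5-fold, 56% of 2-fold, 94% of 3-fold and 92% of 4-fold changes, with 10 false calls among 145. Modest changes were thus often missed in the simulation, and may have been in the data. The simulation held 50 changed genes at each size and gave 145 calls, against 556 in the data, so its rates may not carry over. Members and lists were chosen with earlier results of these data known. Named were the members, MSI1, up to 5 called genes per list with the largest difference, the 5 profiles nearest MATK and its neighbours; list genes without a call are named as background with values. Positions, exon lengths and sequences are GENCODE 29 on GRCh38, matched by symbol. Alternatives were other filters, quantile scaling, variance models, library weights, a replicate block, limma voom on recovered reads, each library left out and another gene length. Some genes of the lists and markers are not reported here.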

Additional observations from a re-analysis of the deposited data

How the results depend on the processing

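The MATK difference stayed positive in all 14 alternatives, but it chose the gene in these same libraries, so this is description only. The difference was 1.37 to 1.59 with each library left out in turn. With limma voom on recovered reads, where reads are not stabilised, it was 2.00 (SE 0.19). CSK, SRC and YES1 kept their sign in all 14, with ranges of 0.0077 to 0.17, 0.11 to 0.15 and −0.28 to −0.048, while FYN changed sign in 2 and LYN in 1. With the longest transcript in place of all exons, WT levels per kilobase were 76.3 for MATK, 312 for CSK, 458 for SRC and 269 for FYN. Within each group, the order of the 7 genes was the same as with all exons.

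Counts of calls over all genes depended on single libraries and on weights. Genes higher in knockdown numbered 242, against 25 to 329 with a library left out, 532 with library weights and 101 with the replicate block. The lowest counts in both directions came without knockdown 1. Genes lower in knockdown numbered 314, against 31 to 397 with a library left out, 681 with weights and 120 with the block. In the pathway lists 4 rose, against 1 to 4 with a library left out, and 3 fell, against 1 to 10 with a library left out, 11 with weights, 6 with no filter, 6 with quantile scaling and 1 with the block. The replicate numbers did not pair the libraries (correlations of deviations −0.0045, −0.25 and 0.0046 for numbers 1, 2 and 3), so the block is only an alternative fit. Depth limits FRK, at 4 to 33 reads a library.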
